A study of Mus musculus with 6 samples.

Results

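Most H3K27ac peaks of these mouse pre-B cells lay away from any annotated transcript start and carried neither Pax5 nor H3K4me3. These distal H3K27ac peaks lacking Pax5 numbered 40717 of the 69345 H3K27ac peaks in the deposited list, or 58.7%. They were chosen by 3 criteria: a peak had to lie farther than 1 kb from every transcript start of GENCODE M1 (all gene types, build mm9), overlap no peak of the confident Pax5 list by even 1 bp, and overlap no bin of the H3K4me3 list. Absence of Pax5, absence of H3K4me3 and distance from starts are therefore properties of the selection and not results.

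H3K27ac is an acetylated form of histone H3 found at active promoters and active enhancers, the latter often lying in introns or between genes and acting on promoters at a distance. H3K4me3 marks active promoters. Pax5 is the transcription factor that commits lymphoid progenitors to the B cell lineage, and it binds at promoters and enhancers of B cell genes together with factors such as Ebf1, the E proteins and PU.1.

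The cells were pre-B cells of C57BL/6 (B6) RAG-/- µ+ mice, which lack the recombinase needed to rearrange immunoglobulin genes and carry a rearranged IgM transgene that lets their cells reach the pre-B stage without it. The labels give bone marrow as the source for this purification, and mice 6 to 14 wk old of both sexes for the study. All 3 lists used here came from such cells, with 1 library for each of H3K27ac, H3K4me3 and Pax5, and the 3 input libraries were not analysed here. How many mice were pooled and which gate isolated the cells for these libraries are not given in the sources used here.

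The H3K27ac list was compared with 15445 Pax5 peaks and with 782636 H3K4me3 bins of 25 bp, which join into 23237 regions. No list has a replicate and none carries read counts, so depth is unknown and no value below has an error from replicates or a test. Peaks of 1 library are not replicates of a condition, and all comparisons are descriptions of these libraries.

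The central 200 bases of 6 members are shown to give the DNA behind the lists. They are the highest-scoring members in the bodies of Arid1b, Mgat5 and Prim2, which have the most members of all genes whose models contain no other protein-coding gene, and the 3 highest-scoring members of all. All are read from mm9 on the plus strand, and capitals mark matches to short recognition words of transcription factors, whose letters and shares are given with the motif results.
Arid1b intron 8, chr17:5299438-5299637: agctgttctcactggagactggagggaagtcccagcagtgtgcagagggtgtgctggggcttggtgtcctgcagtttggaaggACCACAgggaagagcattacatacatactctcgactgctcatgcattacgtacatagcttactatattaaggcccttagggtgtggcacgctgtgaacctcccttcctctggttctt
Mgat5 intron 15, chr1:129366678-129366877: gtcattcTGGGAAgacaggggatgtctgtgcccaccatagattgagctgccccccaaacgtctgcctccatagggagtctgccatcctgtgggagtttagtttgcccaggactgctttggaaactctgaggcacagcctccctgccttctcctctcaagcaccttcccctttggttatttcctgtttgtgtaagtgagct
Prim2 intron 7, chr1:33652220-33652419: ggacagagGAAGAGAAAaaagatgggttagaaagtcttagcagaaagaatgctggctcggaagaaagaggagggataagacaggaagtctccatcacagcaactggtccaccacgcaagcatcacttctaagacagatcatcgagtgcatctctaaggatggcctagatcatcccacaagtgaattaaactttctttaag
Arrb1 intron 1, chr7:106694344-106694543: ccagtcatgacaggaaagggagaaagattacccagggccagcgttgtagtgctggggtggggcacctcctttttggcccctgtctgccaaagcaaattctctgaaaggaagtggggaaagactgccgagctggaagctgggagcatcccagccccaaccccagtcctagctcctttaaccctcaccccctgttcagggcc
upstream of Rreb1, chr13:37711969-37712168: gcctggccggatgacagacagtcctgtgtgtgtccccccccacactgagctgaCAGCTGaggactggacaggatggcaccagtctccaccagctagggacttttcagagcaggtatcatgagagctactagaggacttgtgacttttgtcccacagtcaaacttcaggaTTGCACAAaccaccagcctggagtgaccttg
upstream of Rock2, chr12:16877226-16877425: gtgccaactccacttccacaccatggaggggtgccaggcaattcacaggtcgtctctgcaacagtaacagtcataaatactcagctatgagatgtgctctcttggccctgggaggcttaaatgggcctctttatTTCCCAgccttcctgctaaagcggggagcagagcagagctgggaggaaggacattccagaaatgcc
The capitals in Arid1b are a RUNX word read on the minus strand, those in Mgat5 and upstream of Rock2 are the Ikaros word on the plus and the minus strand, and those in Prim2 are a composite ETS with IRF word. The stretch upstream of Rreb1 held an E protein word and a C/EBP word. The Arrb1 stretch, from the peak with the highest score, held none of the 15 words searched. None of the 6 held the Pax5 word. That word is rare, in 0.381% of all members and 1.26% of distal peaks with Pax5, so 6 stretches say little about it.

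Only a minority of distal H3K27ac peaks had Pax5. Of the 48964 H3K27ac peaks more than 1 kb from every start, 83.2% were members and 11.8% overlapped Pax5, whereas 56.9% of the H3K27ac peaks within 1 kb of a start overlapped it. The other distal peaks were 4034 with Pax5 alone, 2484 with H3K4me3 alone and 1729 with both. Near starts, the most frequent class was instead that with both Pax5 and H3K4me3, with 10924 peaks. The count of members thus exceeded that of every other class, as the plot of all H3K27ac peaks by class shows.

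**Figure D1:**
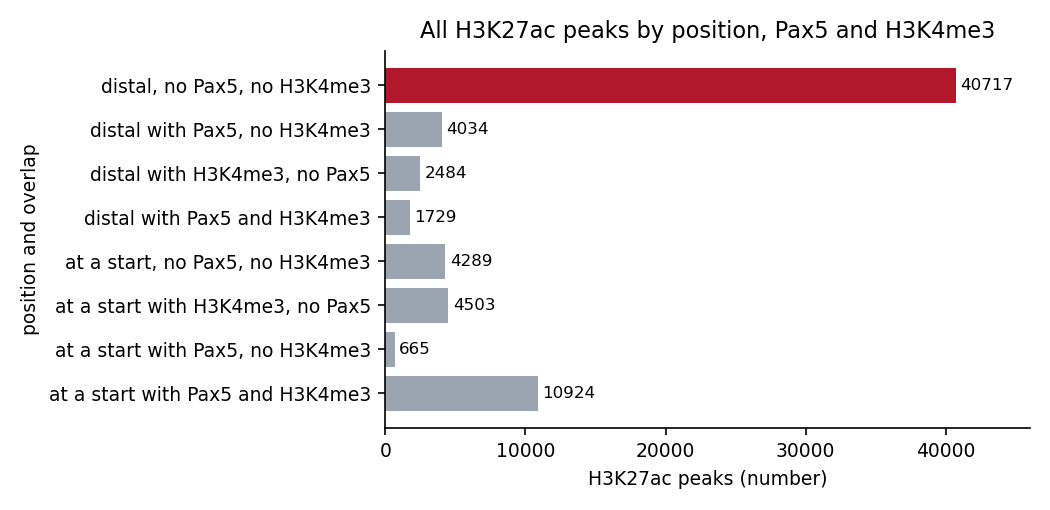
Number of H3K27ac peaks (x axis) in each of 8 classes set by distance to the nearest transcript start and overlap with Pax5 and H3K4me3 (y axis), from 1 library per mark. The 40717 distal peaks without Pax5 and H3K4me3 are in red, and the next class has 10924.

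The members were narrow and low in score. Their median width was 346 bp, with quartiles of 249 and 553 bp and a range of 203 to 6866 bp. The narrowest width in the list, 203 bp, was that of 3255 members. Together they covered 20.3 Mb of the 48.0 Mb in all H3K27ac peaks. Distal peaks with Pax5 had a median width of 780 bp, distal peaks with H3K4me3 734 bp and peaks at starts with both 694 bp. A wider peak has more bases on which a Pax5 peak or an H3K4me3 bin can fall, so the criteria themselves favour narrow members, and the difference in width is a description of the choice.

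The score that the authors' peak caller gave each peak, on an unnamed scale, had a median of 6.80 in the members, with quartiles of 5.53 and 9.52 and a maximum of 113. The median was 13.2 in distal peaks with Pax5, 15 in distal peaks with H3K4me3 and 27.8 at starts with both marks. Members therefore filled the lower end of the list. They made up 84.2% of its lowest-scoring 10% and 3.63% of its highest-scoring 10%, where they were 252 of 6936 peaks. Only 31.2% of the members scored in the upper 50% of all H3K27ac peaks. Score and width rose together across members, with a Spearman's rho of 0.597 over the 40717 peaks, both values coming from the same reads.

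**Figure D2:**
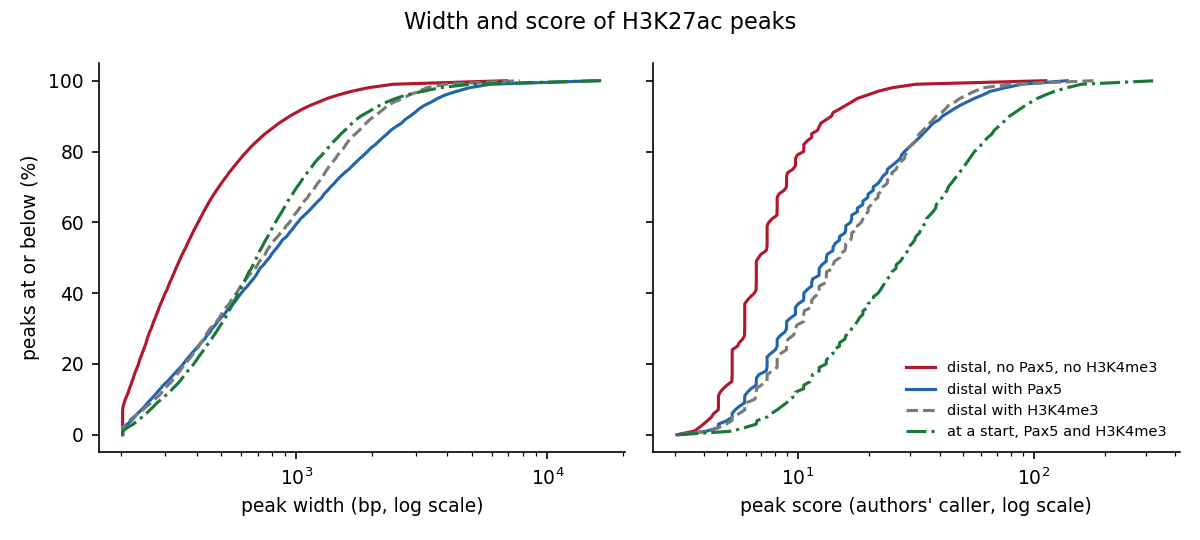
Cumulative share of H3K27ac peaks (y axis, %) by width in bp (left) and by the score of the authors' caller (right), both on log scales, for members (red), distal peaks with Pax5 (blue), distal peaks with H3K4me3 (grey) and peaks at starts with both (green). The members' curve lies to the left in both panels, with medians of 346 bp and 6.80.

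A minority of members were wide. Of all members, 39.8% were narrower than 300 bp, 8.95% were over 1 kb, and 754 members, or 1.85%, were 2 kb or more. These 754 had a median width of 2498 bp and a median score of 24. The median score of 13.2 in distal peaks with Pax5 is over peaks of every width, with a median of 780 bp. Score rose with width in that class too, with a Spearman's rho of 0.810, so the 2 medians are not matched for width. Score showed little relation to the distance from starts, with medians from 6.66 to 7.40 in 6 bins of distance to the nearest protein-coding start. At the 1 kb limit of the rule, the 1567 peaks without Pax5 and H3K4me3 that lay 500 to 1000 bp from a start had a median score of 6.66 and a median width of 315 bp, and the 1611 members 1000 to 1500 bp away had 6.66 and 337 bp.

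Members lay mainly in introns. By their midpoint, 23274 members (57.2%) were in an intron, 15580 (38.3%) were intergenic and 1863 (4.58%) were in an exon, of which 754 were in coding sequence. Of the bases that lie more than 1 kb from every start, 37.3% are intronic, 60.2% intergenic and 2.53% exonic. The density was 25.5 members per Mb of intron and 10.6 per Mb of intergenic sequence. Exons had 30.1 per Mb. Distal peaks with Pax5 were placed less often in introns, at 49.6%, and distal peaks with both Pax5 and H3K4me3 at 35.5%.

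Intronic and intergenic members resembled each other in size. The median width was 342 bp in introns and 355 bp between genes, and the median scores were 6.66 and 7.38. The highest-scoring 25% of the members were 53.6% intronic and 42.6% intergenic, against 59.2% and 35.7% in the lowest-scoring 25%. The median distance from a member's midpoint to the nearest protein-coding start was 16914 bp, with quartiles of 6493 and 42964 bp. Members upstream of that start were 43.9% of all, and 135 members lay 500 kb or more from it.

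Although no member overlapped Pax5, many had a Pax5 peak in the neighbourhood. The median distance to the nearest Pax5 peak was 12948 bp, with quartiles of 3993 and 35909 bp. A Pax5 peak lay within 1 kb of 7.43% of the members, within 10 kb of 43.8%, within 50 kb of 81.9% and within 100 kb of 92.2%. The distance ran from 0 bp, for members that touch a Pax5 peak end to end, to 5764212 bp.

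The 8788 H3K27ac peaks at starts on chromosomes with Pax5 peaks that also lacked Pax5 had a similar median distance of 13574 bp, but 17.1% of them had Pax5 within 1 kb. Unlike the members, this set includes peaks with H3K4me3. Of the start peaks without Pax5 on all chromosomes, 4503 overlapped H3K4me3 and 4289 did not. In the histogram these start peaks form a shoulder below 1 kb that the members do not have. Within 10 kb the shares were close, 43.7% at starts and 43.8% in the members.

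**Figure D3:**
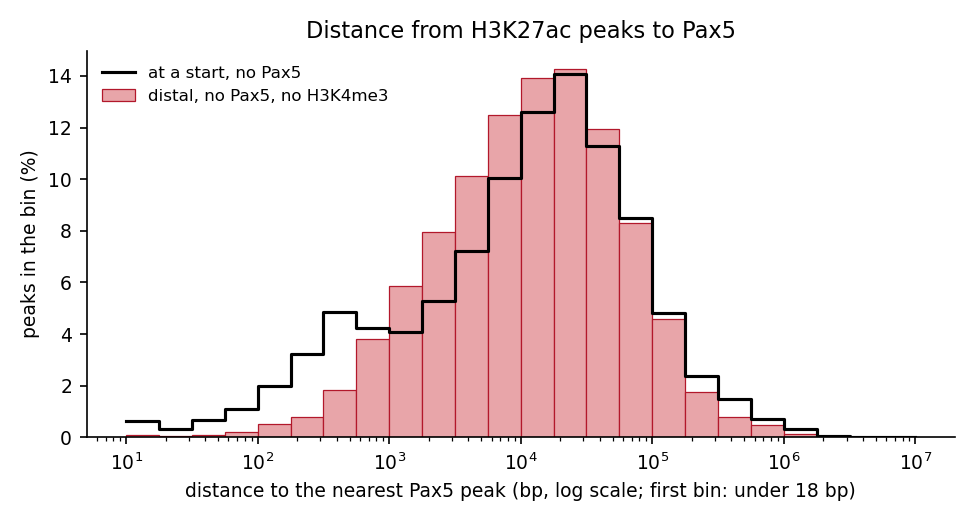
Share of peaks (y axis, %) in bins of distance to the nearest Pax5 peak (x axis, bp, log scale) for the members (red bars) and for H3K27ac peaks at starts without Pax5, with or without H3K4me3 (black line). Both have medians near 13 kb (12948 and 13574 bp), and 7.43% against 17.1% lie within 1 kb.

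Members near Pax5 looked much like those far from it. The 2826 members with a gap of 100 bp to under 1 kb had a median width of 357 bp and a median score of 7.33, and the 3093 members with a gap of 100 kb to under 1 Mb had 334 bp and 6.66. The highest-scoring 25% of members had a median gap of 11928 bp and the lowest-scoring 25% one of 13638 bp. Intronic members lay a median of 12919 bp from Pax5 and intergenic ones 13388 bp.

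Members often came in groups. The median gap to the next H3K27ac peak of any class was 416 bp, and 27986 members (68.7%) had another H3K27ac peak within 1 kb. For 4812 members (11.8%) an H3K27ac peak that itself overlapped Pax5 lay within 1 kb, and for 41.8% one lay within 10 kb. Those with another peak within 1 kb had a median score of 7.40 and those without one 6.53. Pax5 was a median of 10296 bp away from the former and 19553 bp from the latter.

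When H3K27ac peaks within 1 kb of each other were joined, a setting that was added with the data in view, 19084 joined regions met the same 3 criteria. These regions hold 29977 of the members, or 73.6%. The other 10740 members are in joined regions that lie within 1 kb of a start or have Pax5 or H3K4me3. That Pax5 or H3K4me3 can lie in a neighbouring peak or in a gap between the joined peaks. Most joined regions (66.7%) were single peaks, while 487 held 5 or more. The region with the most peaks, 15 over 29577 bp at chr17:84538087-84567663, was intergenic with Zfp36l2 as the nearest gene and Pax5 12186 bp away. The next region lay near Prex1 with 14 peaks over 15183 bp, and a region of 13 peaks over 18822 bp lay in Rreb1.

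Members were spread over many genes. In the body or within 10 kb, 8077 of 22367 protein-coding genes, or 36.1%, had at least 1 member, and 863 genes, or 3.86%, had 10 or more. In the body alone, 622 genes had 10 or more, and their counts sum to 12043, with a member in overlapping genes counted for each. Long genes have more room, and the 863 genes had a median body of 93.6 kb against 10.5 kb in genes without a member.

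The gene models with the most members in the body were Gm20388 with 324 and Fgfr2 with 82. These models span 4435 and 3009 kb and contain 72 and 31 other protein-coding genes, so their counts belong to whole neighbourhoods, and neither start was the nearest to any member. The next was Arid1b, a subunit of the BAF chromatin remodelling complex, with 76 members in 353 kb. Mgat5, a glycosyltransferase that branches N-glycans, and Prim2, the large subunit of DNA primase, had 72 each in 279 and 216 kb. The other genes among the first 10 had 67 to 70: Runx1, a factor of blood cell development (70), Cdk6, a kinase that partners D cyclins in G1 (69), Etv6, an ETS family repressor (69), Zmiz1, a transcriptional coactivator (68), and Ebf1, which specifies the B cell lineage together with Pax5 (67).

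The members within 1 gene varied in width and score, over a narrower range than in the whole set. In Runx1 they were 203 to 2883 bp wide with scores of 3.70 to 45.9 and a median of 5.98. In Ebf1 they were 203 to 1854 bp wide with scores of 3.97 to 25.0 and a median of 6.29. In Arid1b the scores ran from 3.10 to 37.4 with a median of 6.66. Nearly all were intronic, with all 70 in Runx1, 65 of 67 in Ebf1 and 74 of 76 in Arid1b.

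These genes differed in how close their members were to Pax5. In Arid1b, which has 9 Pax5 peaks in its body, the median distance was 9436 bp, and in Zmiz1, also with 9, it was 11195 bp. In Etv6, with 1 Pax5 peak for its 69 members, the median distance was 83706 bp, and the distances ran from 1232 to 125470 bp. Runx1 had 3 Pax5 peaks and a median of 48290 bp, and Cdk6 had 2 and 32450 bp. All 5 genes had Pax5 and H3K4me3 at a start.

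By nearest protein-coding start, Foxp1 led with 115 members, followed by Arid1b with 102, Runx1 with 98 and Prex1, a Rac exchange factor, with 97. Foxp1 is a forkhead factor required in early B cell development. Rreb1 had 86, Ebf1 83, Zmiz1 81 and Prim2 77. Among the first 10 were also 2 short genes whose members nearly all lay away from the gene: Cxcr4, the receptor for Cxcl12 that holds B cell precursors in the marrow, was nearest to 79 members with 4 within 10 kb, and Zfp36l2, an mRNA decay factor that holds back proliferation, was nearest to 78 with 6 within 10 kb. The nearest start is a label of position and does not show which gene a member acts on.

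The highest-scoring members lay in 1 intron and in intergenic sequence, and 4 of the first 5 had another H3K27ac peak within 1 kb. The first was the 3761 bp peak in intron 1 of Arrb1, a beta-arrestin, with a score of 113 and Pax5 8157 bp away. The second, with 104, was intergenic, 158200 bp upstream of Rreb1, and the third, with 93.4, was 24458 bp upstream of Rock2, a protein kinase. The next had Fmo9 (90.5) and Parp1 (90.4) as nearest genes. Of these 5 members, that near Parp1 was closest to Pax5, at 1728 bp, and that near Fmo9 farthest, at 78201 bp. The widest member, 6866 bp with a score of 77.0, lay in intron 1 of Rreb1.

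Genes of the B lineage commonly had members. Of 24 transcription factors of B cell development, 22 had a member in the body or within 10 kb, with a median of 12.5 per gene, against 36.1% and a median of 0 over all protein-coding genes. Runx1, Ebf1 and Bcl11a had the most, with 70, 67 and 47. Ikzf1, which encodes Ikaros, had 37, Ets1 35 and Mef2c 21. Pax5 itself had 5, all with scores of 5.94 to 8.16, beside 7 Pax5 peaks in its body. Ikzf2 and Myc had none, although Myc was the nearest gene to 28 members.

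These factor genes are also long, with a median body of 92.0 kb against 15.4 kb over all genes. Per 100 kb of gene body and 10 kb flanks, merged where they overlap, they had 13.8 members, and all protein-coding genes 2.38. Members were 470 of the 631 H3K27ac peaks in that space, or 74.5%, and 109 of the 631 overlapped Pax5, or 17.3%, against 54.2% and 27.7% around all protein-coding genes. At the starts themselves, 23 of the 24 had Pax5 and all 24 had H3K4me3.

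All 15 genes of pre-B receptor signalling had members, with a median of 7, against 36.1% and a median of 0 over all protein-coding genes. They are also longer, with a median body of 44.4 kb against 15.4 kb over all genes. The kinase Syk, annotated as Sykb, had 21, the phospholipase Plcg2 16, and the kinase subunit Pik3cd 12. The receptor chains had fewer within their short bodies and flanks: Cd79b had 5, Igll1 4, Cd79a 3 and Vpreb1 2, where Igll1 and Vpreb1 are neighbours with overlapping flanks. The adaptor Blnk had 8 and the kinase Btk, on the X chromosome, 3. Members were 60.8% of the H3K27ac peaks around these genes and 25.8% overlapped Pax5, near the 54.2% and 27.7% around all protein-coding genes.

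Of 15 genes of IL-7 signalling, the recombinase, survival and the cell cycle, 14 had members with a median of 6. Over all protein-coding genes the share was 36.1% and the median 0. The median body was 30.2 kb in this list and 15.4 kb over all genes. Ccnd3, the D cyclin needed for pre-B proliferation, had 46 with scores up to 53.5. The survival gene Bcl2l1 and the kinase Jak1 each had 18. The recombinase genes were at the other end, Rag1 with 1 and Rag2 with 0, although both had H3K27ac, H3K4me3 and Pax5 at a start. Dntt, which encodes terminal transferase, had 14, and Il7r 3.

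Of 15 B cell surface genes, 12 had members with a median of 4. Ptprc (CD45) had 18 and Cd38 10. Cr2, Fcer2a and Ms4a1 had none, and Ms4a1 had no H3K27ac peak within 10 kb at all. The defining pre-B genes Cd79a, Cd79b, Igll1, Vpreb1, Rag1, Rag2 and Pax5 carried H3K27ac at a start, while Fcer2a and Ms4a1 had none there. Cr2, also without members, did have H3K27ac and Pax5 at a start, with 2 H3K27ac peaks in its body or within 10 kb.

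**Figure D4:**
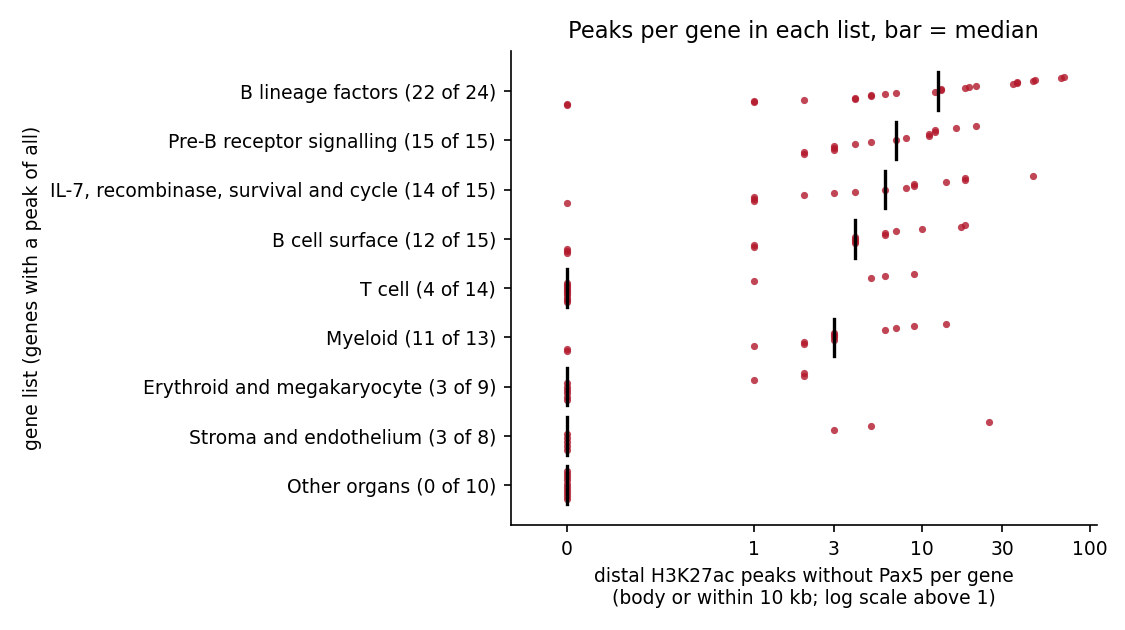
Number of members in the body or within 10 kb of each gene (x axis, log scale above 1) in 9 gene lists (y axis, with the number of genes that have a member); each point is 1 gene and the black bar is the median. Medians were 12.5, 7, 6 and 4 in the B lineage lists, 3 in the myeloid list and 0 in the others.

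Lists of genes of other cells and organs were counted in the same way. Of 10 genes of other organs, such as Alb and Myod1, none had a member and 1 H3K27ac peak lay near them in all. Of 14 T cell genes, 4 had members, among them Cd5 with 6, Tcf7 with 5 and Zap70 with 1. The defining genes Cd3d, Cd3e, Cd3g, Cd4 and Cd8a had 0. Of 9 erythroid and megakaryocyte genes, 3 had members, 1 or 2 each, and the defining genes Gata1, Hbb-b1, Klf1 and Pf4 had 0. A count of 0 members does not mean an unmarked gene. Klf1 had 6 H3K27ac peaks in its body or within 10 kb, with H3K27ac and H3K4me3 at a start. Hbb-b1 also had H3K27ac at a start, and so did 6 of the 9 genes in all. In the stromal and endothelial list 3 of 8 did, among them Pecam1, an adhesion molecule also found on leukocytes, with 25. The shares in the T cell, erythroid and stromal lists, 28.6%, 33.3% and 37.5%, lay near the 36.1% of all protein-coding genes.

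In the myeloid list, members were present at 11 of 13 genes, with a median of 3 and a range of 0 to 14, although the median body was 3.09 kb. Over all protein-coding genes the share was 36.1% and the median 0, with a median body of 15.4 kb. Itgam (CD11b) had 14 with scores up to 36.2, Lyz2 (lysozyme) 9, S100a9 (calprotectin) 7 and the granulocyte factor Cebpe 6. The growth factor receptors Csf1r and Csf3r had 3 each, and Ctsg and Fcgr1 had 0. The density of 12.8 members per 100 kb was near that of the B lineage lists, 11.5 to 13.9.

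Few H3K27ac peaks around the myeloid genes had Pax5. Pax5 lay at none of the 13 starts, and 3 of the 84 H3K27ac peaks around them, or 3.57%, overlapped it, against 17.3% to 25.8% in the B lineage lists and 27.7% around all protein-coding genes. The share was also low around the erythroid and stromal genes, at 8.70% of 23 peaks and 9.30% of 43. Around the T cell genes it was 32.7% of 55 peaks. H3K27ac was at a start of 9 of the 13 and H3K4me3 of 6. In a bulk library, a few cells with a strong mark and many cells with a weak one cannot be told apart, and the part of other cells in these peaks was not tested. With the higher-scoring 50% of the H3K27ac list, chosen after the data were seen, 8 of the 13 myeloid genes and 16 of the 24 B lineage factors had a member, against 20% of all protein-coding genes.

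Most members had a nearest gene with H3K4me3 at a start. The nearest protein-coding gene had H3K4me3 at a start for 81.4% of the members and Pax5 there for 63.6%, against 53.0% and 38.1% of all protein-coding genes. A gene nearest to many members is counted for each of them in the shares of members, and once in the shares of genes. For distal peaks with Pax5 the shares were 77.9% and 62.6%. Members thus had neighbours with Pax5 at the start about as often as distal Pax5-bound peaks did. Among the 863 genes with 10 or more members, 93.3% had H3K4me3 and 73.1% Pax5 at a start, against 39.3% and 27.2% of the genes without a member.

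Body length goes along with these shares, so they were also taken in bins of length. In genes of 10 to under 50 kb, 51.6% of those with H3K4me3 and Pax5 at a start had a member, 47.8% of those with H3K4me3 alone and 22.7% of those without H3K4me3. In genes of 100 kb or more the shares were 77.9%, 68.7% and 27.6%. The order of the 3 classes was the same in all 4 bins of length.

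The DNA at the members' centres was searched for 13 recognition words and for 2 more added after the data were seen. In the central 200 bp, on both strands, 10 of the 13 words were found in a larger share of members than of 255815 windows placed every 10 kb along mm9. Members are richer in G and C, with a median GC content of 49% against 41.5% in the genome windows, and the part of base composition in these shares was not tested. A match is a word in the reference sequence and does not show that a factor binds.

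The words of some B lineage factors were among those found more often, while the octamer, ETS with IRF and FOXO words were found less often. The E protein word CAGCTG was in 13.5% of members and 7.26% of genome windows, and CAGGTG in 16.3% and 11.9%. The EBF word CCCNNGGG was in 6.71% against 3.19%, the PU.1 word GAGGAAGT in 1.95% against 1.21% and the RUNX word TGTGGT in 16.7% against 13.8%. The Ikaros word TGGGAA was in 19.9% against 16.6%, the general ETS word CCGGAAGT in 0.253% against 0.128% and the CTCF word AGGTGGCAG in 0.614% against 0.301%. The AP-1 word TGANTCA, at 6.23% and 5.94%, differed little. GAGGAAGT and CCGGAAGT share their last 6 letters, so these 2 are not separate words at the core, and AGGTGGCAG after a C also holds CAGGTG. Over all H3K27ac peaks CAGCTG was in 12.7%, CAGGTG in 16.1%, CCCNNGGG in 7.39% and GAGGAAGT in 2.00%, so these shares were not particular to members. TGTGGT was in 15.2% of all H3K27ac peaks and CCGGAAGT in 0.613%.

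Of these words, that of PU.1 was found in 2.53% of the highest-scoring 25% of members and in 1.76% of the lowest-scoring 25%, and CAGCTG in 14.4% and 12.7%. The CCCNNGGG word did not move with score, at 6.76% and 6.78%. Words found less often than in the genome were the octamer ATGCAAAT, in 0.739% against 1.69%, the ETS with IRF word GAANNGAAA, in 6.13% against 7.28%, and the FOXO word GTAAACA, in 2.75% against 3%. The 2 added words were also less frequent, the C/EBP word TTGCNNAA in 7.39% against 9.36% and AGATAA, read by the GATA factors, in 8.81% against 13.3%.

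The Pax5 word was found near its genome share in members. GCGTGAC, part of the longer Pax5 site, was in 0.381% of members and 0.327% of genome windows. It was in 1.26% of distal peaks with Pax5 and in 1.46% of peaks at starts with Pax5 and H3K4me3. Distal peaks with H3K4me3 and no Pax5 held it in 0.846%, so its share did not follow Pax5 overlap alone. Both GC content (49% in members, 48.5% in distal peaks with Pax5) and the E protein, EBF, RUNX and PU.1 words differed less between members and distal peaks with Pax5, with CAGCTG at 13.5% and 15.3%, CCCNNGGG at 6.71% and 7.16%, TGTGGT at 16.7% and 17.9% and GAGGAAGT at 1.95% and 2.16%. The members held 2.22 CpG dinucleotides per 200 bp on average, against 7.96 at starts with both marks and 1.66 in the genome.

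**Figure D5:**
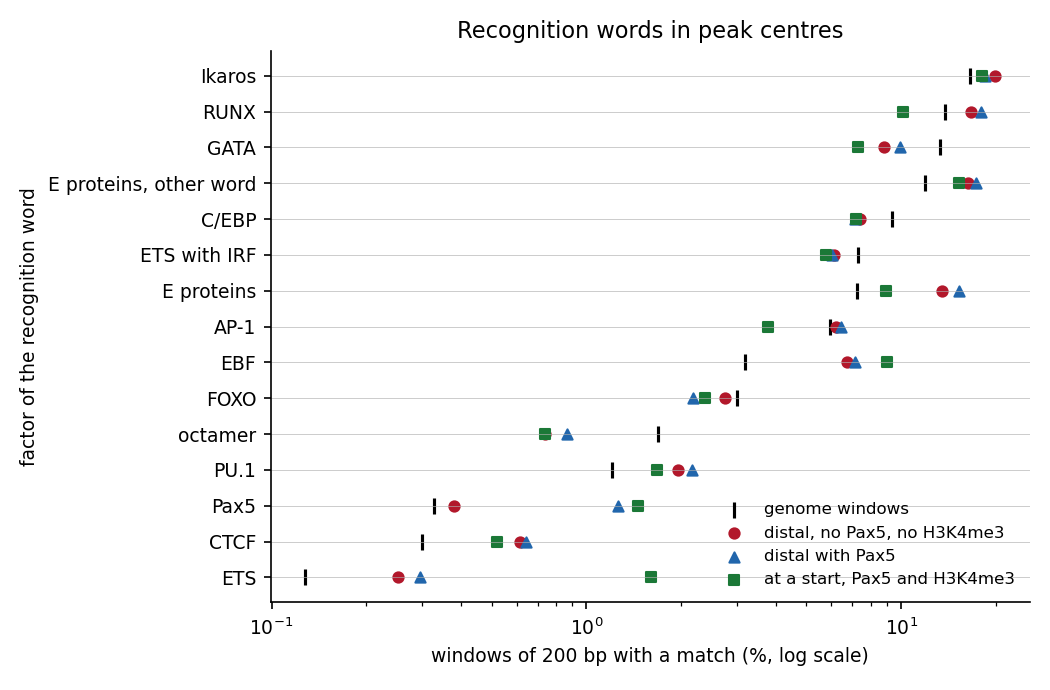
Share of 200 bp windows with a match (x axis, %, log scale) for 15 recognition words, each named by its factor (y axis), in members (red), distal peaks with Pax5 (blue), peaks at starts with Pax5 and H3K4me3 (green) and genome windows (black ticks). The Pax5 word is at 0.381% in members, near the genome share of 0.327% and below the 1.26% of distal peaks with Pax5.

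Members were found on all chromosomes except Y. On autosomes their number per Mb ran from 10.4 on chromosome 3 to 23.8 on chromosome 11. The X chromosome had 297 members, 1.78 per Mb, and they were 32.1% of its 925 H3K27ac peaks. In the immunoglobulin loci, which cannot rearrange in these cells, 94 of 171 H3K27ac peaks in Igh were members, 47 of 105 in Igk and 11 of 23 in Igl. Their median scores, 7.36, 7.40 and 6.66, lay near that of all members.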

How the data were processed

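H3K27ac, H3K4me3 and Pax5 were measured by ChIP-seq in pre-B cells, 1 library each. Alignment was to mm9 with Bowtie, after removal of duplicates and adapters, and the paper's methods allow a read more than 1 best position. The submitters' processing notes name Bowtie 0.12.9 and MACS 1.4.2, while the paper's methods name another Bowtie version and give its alignment settings for all ChIP-seq data. The peak-calling settings behind these lists are not given in the sources used here. The deposited H3K27ac and Pax5 lists hold 1 score per peak, from the authors' caller, on an unnamed scale, and served here to order and describe peaks. The deposited H3K4me3 list holds other values, 25 bp bins without a score. Depth is unknown, so no interval from read counts is given.

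Distances were computed between peak edges and the transcript starts of GENCODE M1 (mm9), and intron, exon or intergenic class was taken at the peak's midpoint, with exons over introns where genes overlap. Introns are numbered in the transcript with the most exons, among those of any protein-coding gene with the member's midpoint in an intron. A gene's members are those with a midpoint in the body, or in the body and 10 kb on either side. Words were searched on both strands in 200 bp around the midpoint. The named genes are the 10 with most members in the body, the 10 by nearest protein-coding start, the first 3 of each list, the 5 highest-scoring members and, as further context, other members of the lists. Some genes of the lists are not reported here by name, although they count in the lists' totals. Members and gene lists were chosen with earlier results of these data known. Joining peaks, 2 words and the list counts in higher-scoring peaks were added after the data were seen, and 2 sequences from the longest gene models were left out of those planned. The alternatives were other limits for starts, Pax5, H3K4me3 and score. The interval functions were tested on simulated data. Python 3.11.15, numpy 2.4.6, scipy 1.17.1, pandas 2.3.3 and matplotlib 3.10.9 were used.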

Additional observations from a re-analysis of the deposited data

How the results depend on the processing

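Of 43 alternative values for the main results, 20 moved past a yardstick, which for counts was 1.5 times and otherwise a 95% interval over peaks or genes; since these are not replicates, it is no test. With the higher-scoring 50% of the H3K27ac list, the number fell to 12717, the median width rose to 644 bp, the intron share was 54.3%, the median distance to Pax5 12035 bp and the share of protein-coding genes with a member 20%. Joining peaks within 1 kb, added after the data were seen, gave 19084 regions, 436 bp, 19076 bp and 29.9% of genes. With the higher-scoring 50% of the Pax5 list the median distance to Pax5 was 30561 bp and the width 354 bp. With starts over 5 kb away, 54.9% were in introns, Pax5 was 15365 bp away and 23.9% of genes had a member. Without any Pax5 peak within 1 kb the distance was 15068 bp and the share of genes 34.2%, and without H3K4me3 within 1 kb 13656 bp and 33.7%. With the limit of 1 kb applied to midpoints 36.8% of genes had a member, and with introns of protein-coding genes only the share was 55.3%. These settings keep fewer, other or wider regions or class introns differently, and why each value moved was not tested. The number of words above the genome share was 10 with windows of 400 bp too. In higher-scoring peaks 1 erythroid gene had a member in place of 3, and the other 8 lists moved by at most 1.5 times.

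No paired analysis was possible because no mark has more than 1 library. With no read counts, it is unknown how many weaker peaks, of Pax5 or of H3K27ac, fell below the callers' limits, and a member without Pax5 is a region without a called Pax5 peak.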
